A study of Mus musculus with 8 samples.

Results

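The feeder fibroblasts of 2 mES cell cultures were examined, 1 untreated and 1 treated with CX-5461, which both grew on mouse embryonic fibroblast (MEF) feeders. Cells were chosen by the measured levels of 3 collagen transcripts. A cell was counted as a fibroblast, and is called a member here, when Col1a1, Col1a2 and Col3a1 together took at least 0.1% of its unique molecular identifiers (UMIs, each a captured RNA molecule) and at least 5 UMIs. By this rule 286 of 8464 kept cells were members, 140 of 3767 control cells and 146 of 4697 CX-5461 cells. The members made up 3.72% of control cells (exact Clopper-Pearson 95% interval 3.14 to 4.37) and 3.11% of CX-5461 cells (2.63 to 3.65). Intervals throughout are at 95% and cover counting error only.

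Feeder fibroblasts are connective tissue cells that are plated beneath mES cells to supply attachment and growth signals. Fibroblasts secrete fibrillar collagens and the glycoproteins that organise them, and in culture many of them build actin stress fibres with smooth muscle actin (Acta2) and transgelin (Tagln), the pattern known from myofibroblasts. CX-5461 is an inhibitor of RNA polymerase I, the enzyme that transcribes ribosomal RNA, and it activates p53 in many cell types.

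The cells came from cultures kept for 2 days in LIF/2i medium on gelatin, and both groups were labelled as ES cells derived from the inner cell mass, either untreated or treated with CX-5461. Neither the dose nor the hours of CX-5461 for these libraries, nor whether the feeders had been inactivated or removed, is given in the labels. The labels do not describe feeders as a group of their own. The labels list 4 samples per condition, while all barcodes of a condition stand in 1 table that does not say which sample a barcode came from. Each condition therefore counts as 1 library here, and no test between conditions could be made. Barcodes under 500 UMIs, or with a mitochondrial share above 0.2, were left out. Levels are given as CPM, the UMIs of a gene summed over the members of a library and scaled to a total of 1000000 UMIs of those members, and every ratio is CX-5461 over control. No barcode had identical counts in both tables.

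The members were deep cells, and the rule itself favours depth because it asks for at least 5 collagen UMIs. In sum they held 3264124 UMIs in control and 3706968 after CX-5461, with medians of 22620 UMIs per cell (3144 to 73276) and 24958 (5242 to 50308), beside medians of 12680 and 14075 in the other kept cells. The mitochondrial share of UMIs had a median of 1.91% in control members and 3.12% in CX-5461 members, and of 2.36% and 4.13% in the other cells.

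The collagen share that defined the members differed between the libraries. Its median was 0.194% of UMIs in control members (middle 50% of cells 0.144 to 0.292, highest 0.865) and 0.333% in CX-5461 members (0.228 to 0.481, highest 1.28). The members just inside the rule stood at 0.101% and 0.105%, and the nearest cells outside it with at least 5 UMIs stood at 0.0996% and 0.0992%. Between 0.05% and 0.1% there were 31 further control cells and 5 further CX-5461 cells, and all of these reached the mesenchymal score described next.

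A score that uses no gene of the rule drew the border elsewhere. The 9 mesenchymal genes Lgals1, S100a6, Vim, Timp1, Anxa1, Cav1, Sparc, Fn1 and Thy1, chosen after the data were seen, took at least 0.75% of UMIs in 216 control cells and 166 CX-5461 cells, and 19 and 6 kept cells lay between 0.3% and 0.75%. All 286 members reached the score, with lowest values of 0.983% and 0.922%. A further 76 control cells and 20 CX-5461 cells reached it without meeting the collagen rule, which is 35.2% (28.8 to 42.0) and 12% (7.52 to 18.0) of the cells with the score. The median depth of these 76 and 20 cells was 17308 and 8654 UMIs. Among them 16 and 6 had no UMI of the 3 collagens, at median depths of 3008 and 6573 UMIs. The rule thus left out more collagen-poor cells in control than after CX-5461. The 3 collagens, Sparc and the medians of the matrix lists are given below with these cells as well.

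**Figure D1:**
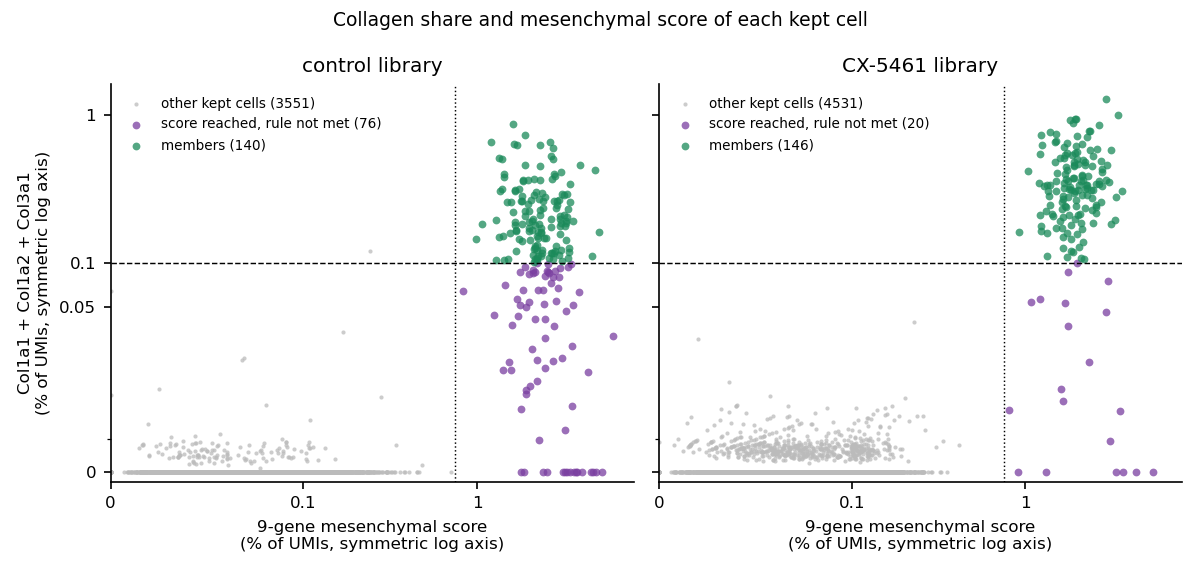
Each point is a kept cell of the control library (left) or the CX-5461 library (right), placed by its 9-gene mesenchymal score and its summed share of Col1a1, Col1a2 and Col3a1, both in percent of UMIs on symmetric log axes. The dashed line marks the 0.1% rule and the dotted line the 0.75% score, and 76 control cells and 20 CX-5461 cells lie to the right of the dotted line and below the dashed one.

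Fibroblast genes outside the rule were described next. Of 20 fibroblast markers, 19 had at least 100 UMIs over the members, and the exception was Pdgfra with 10 and 16 UMIs. Of these, 16 also had at least 100 UMIs in the other kept cells, so the count does not set members apart. Vimentin (Vim), the mesenchymal intermediate filament, stood at 1937 CPM in control members and 1855 CPM in CX-5461 members, beside 190 and 214 CPM in other cells. Prrx1, a transcription factor of limb and craniofacial mesenchyme, stood at 155 and 162 CPM, beside 4.09 and 0.507 CPM in the others. Cd248, a surface glycoprotein of stromal cells, was picked from these data, as 1 of the 10 genes highest over other cells in each library. It was 72.8 times higher in control members than in other control cells (59.8 to 89.2) and 521 times higher in CX-5461 members than in the other CX-5461 cells (358 to 788). The 76 control and 20 CX-5461 cells with the score but outside the rule are part of that reference.

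Defining markers of other cell types were examined next. Ptprc, the pan-leukocyte antigen, Adgre1, C1qa and C1qb had no UMI in either library, and the 13 macrophage markers summed to 17.8 and 20.8 CPM. Cdh5, an endothelial cadherin, and the muscle factors Myod1 and Myog also had no UMI. The erythroid list reached 0.306 and 1.08 CPM. The neural list reached 271 and 204 CPM, mostly from the cytoskeletal genes Tubb3 and Stmn2. The keratinocyte list at 96.8 and 146 CPM was mostly Perp, which is also a p53 target. The muscle list at 76.6 and 124 CPM was mostly Des, and the pericyte list moved from 15.3 to 93.1 CPM through Ndufa4l2, described further below. The endothelial list summed to 7.05 and 11.3 CPM, the cartilage and bone list to 21.1 and 23.7 CPM and the adipocyte list to 17.5 and 10.8 CPM. The primitive endoderm list was the exception, at 2536 and 5535 CPM in members and 224 and 225 CPM in other cells. Most of it was Sparc, at 2336 and 5234 CPM, a matrix gene that fibroblasts also express, and the defining factors Gata4, Sox17 and Foxa2 had no UMI in either library while Gata6 had 19 and 29.

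Transcripts of the mES cells were scarce in the members. The 22 pluripotency genes summed to 654 CPM in control members and 476 CPM in CX-5461 members, which is 7.51% and 5.03% of their level in the other cells. In each library 1 member carried a pluripotency share of at least 0.5 of the median of the other cells, 0.714% (0.0181 to 3.92) and 0.685% (0.0173 to 3.76) of members. At 0.25 of that median or above there were 9 control members and 3 CX-5461 members. Members were deeper than the other cells, so a barcode that also held a mES cell could lie below 0.5. Pou5f1, the core pluripotency factor, had a UMI in 55.0% of control members and 28.1% of CX-5461 members, beside 87.8% and 97.8% of the other cells. Krt5 and Krt15, keratin genes, had no UMI in either group of members, against a floor of 3 UMIs that corresponds to 0.919 and 0.809 CPM, while Krt5 stood at 0.0216 CPM in other control cells and 19.9 CPM in other CX-5461 cells.

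Sex-linked transcripts, which the rule did not use, were also examined. Xist, the RNA that coats the inactive X chromosome of female cells, had at least 5 UMIs in 118 of 140 control members (84.3%, 77.2 to 89.9) and in 131 of 146 CX-5461 members (89.7%, 83.6 to 94.1). Among the other kept cells below the mesenchymal score it did so in 5 of 3551 and 1 of 4531 cells. Xist also had at least 5 UMIs in 50 of the 76 control cells and 8 of the 20 CX-5461 cells that reached the score without meeting the collagen rule. Xist itself stood at 908 CPM in control members and 486 CPM in CX-5461 members.

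The 4 Y-linked genes Ddx3y, Eif2s3y, Uty and Kdm5d had a UMI in 18 control members and 11 CX-5461 members, beside 27.7% and 56.7% of the other kept cells below the score. Y-linked UMIs without any Xist UMI were found in 13 of 140 control members (9.29%, 5.04 to 15.4) and in 1 of 146 CX-5461 members (0.685%, 0.0173 to 3.76). The share of members with Y-linked RNA and no Xist RNA thus differed between the libraries, and its part in the comparisons below was not tested.

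Few members carried transcripts of dividing cells. The 38 genes of the G2/M list took a median of 0.0159% of UMIs in control members and 0.0135% in CX-5461 members, against 0.322% and 0.368% in the other cells. A G2/M share of at least 0.25 of the median of the other cells was reached by 18 control members (12.9%) and 5 CX-5461 members (3.42%). Of these, 9 and 2 had a pluripotency share below 0.1 of the median of the other cells. Summed over the members, the list stood at 410 and 211 CPM, while it stood at 3494 and 4156 CPM in other cells. Ube2c, which drives mitotic protein destruction, fell from 61.6 to 17.0 CPM and the centromeric histone Cenpa from 28.8 to 8.90 CPM. RNA of the mES cells moved with these values, since the summed pluripotency level of the members was also lower in the CX-5461 library, and its part in them was not tested.

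The question of the main comparison is how the members of the treated culture differed from those of the untreated one. Genes with at least 100 UMIs over all members were used, 5479 in number, and a gene was called when its CPM ratio reached 2 or fell to 0.5. At this fold 426 genes were higher in CX-5461 members, 7.78% of those used, and 242 were lower, 4.42%. The counting interval lay clear of 2-fold for 184 of the 426 and 122 of the 242. The median log2 ratio of the 5479 genes was 0.17, and list medians below are read against that value. Counts of called genes in each list are read against these shares of 7.78% higher and 4.42% lower. With the TMM factor, which centres the bulk of genes, all log2 ratios were lower by 0.17 and the counts became 279 higher and 347 lower. In the other kept cells 12.5% of the same genes with at least 100 UMIs there were called higher and 5.09% lower, around a median of 0.24.

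**Figure D2:**
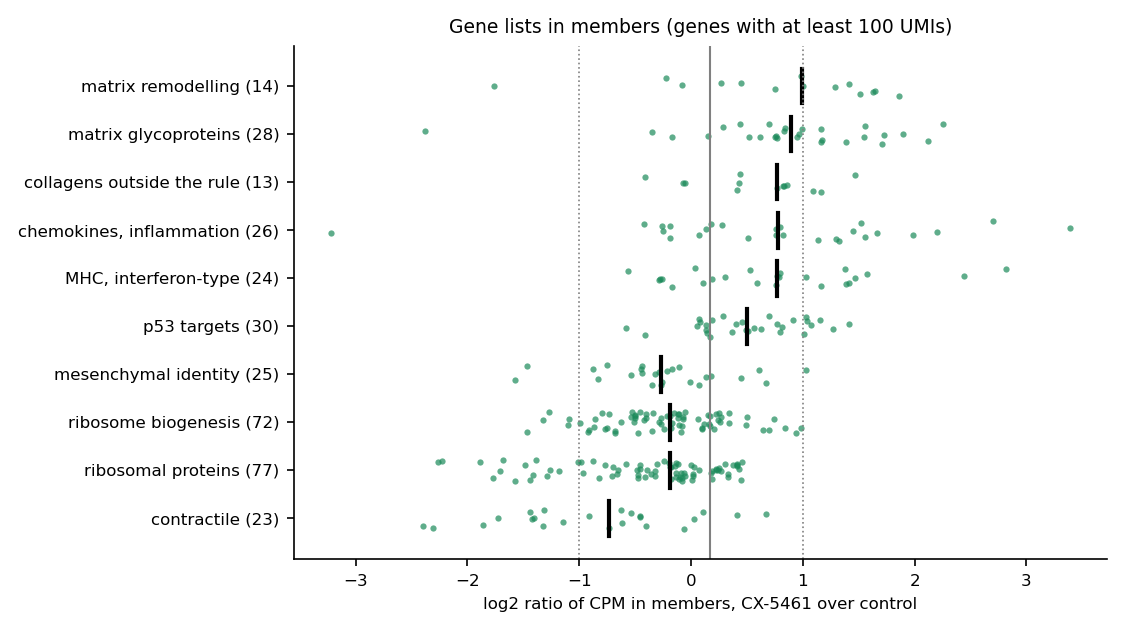
Each point is a gene with at least 100 UMIs over the members, placed by its log2 ratio of CPM, CX-5461 over control, within the list named on the left with its number of such genes. Black bars are list medians, from 0.99 for matrix remodelling to -0.73 for contractile genes, the solid grey line is the median of all 5479 genes at 0.17 and the dotted lines mark 2-fold.

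Contractile genes, which build and regulate actin stress fibres, were lower after CX-5461. Of 23 used genes none was called higher and 10 were called lower, with a median log2 ratio of -0.73, beside 4.42% lower among all genes. The list summed to 19521 CPM in control members and 10378 CPM in CX-5461 members. In the other cells 7 of 23 were called lower and 3 higher, with a median of -0.18, and the sum stood at 4334 and 3277 CPM. Without the 76 control and 20 CX-5461 cells of that reference that reached the mesenchymal score, its median was 0.21 over 19 genes, and the sum stood at 3904 and 3230 CPM. Over all cells with the mesenchymal score the list median was -0.65.

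Acta2, smooth muscle actin, ranged from 0 to 14435 CPM per control member around a median of 1699 CPM, and from 0 to 20771 CPM per CX-5461 member around a median of 156 CPM. The cells overlapped over the whole range, and the middle of the distribution moved. Summed, Acta2 fell from 2494 to 948 CPM, 2.63 times lower (2.53 to 2.74). A UMI of Acta2 was found in 91.4% of control members and 74.7% of CX-5461 members, and in 87.7% and 61.3% after each member was thinned to 10000 UMIs, with 10 and 4 shallower members left out. In the other cells it was found in 6.45% and 1.47%. The 5 CX-5461 members with the most Acta2 held 46.7% of its UMIs there, against 20.8% for the 5 control members, and without the top cell of each library the log2 ratio went from -1.40 to -1.68.

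Tagln, an actin-binding protein of smooth muscle, had medians of 479 CPM per control member and 45.0 CPM per CX-5461 member, with highest cells at 6415 and 3020 CPM. Summed, it fell from 908 to 183 CPM, 4.96 times lower (4.56 to 5.40). Tpm2, a tropomyosin of the thin filament, had medians of 835 and 299 CPM per member and fell from 1116 to 451 CPM. Its cells overlapped between the libraries, as those of Tagln did.

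Cytoplasmic beta-actin (Actb) was found in every member. It ranged from 709 to 47254 CPM in control members around a median of 3499 CPM, and from 132 to 8320 CPM in CX-5461 members around a median of 1288 CPM. Its summed level fell from 5050 to 1518 CPM, a log2 ratio of -1.73, while in other cells it stood at 1744 and 1008 CPM, a log2 ratio of -0.79. Gamma-actin (Actg1) did not reach the fold, at 3123 and 2027 CPM.

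Calponin 1 (Cnn1), a smooth muscle regulator of actin, was seen in few cells. It had a UMI in 45 of 140 control members and 11 of 146 CX-5461 members, with 29 of 204 control UMIs and 26 of 44 CX-5461 UMIs in single cells. Its log2 ratio was -2.40, and -3.47 without the top cell of each library. Enteric actin (Actg2) had 93 of its 342 control UMIs in 1 cell and fell from 105 to 28.9 CPM. The regulatory light chain Myl9 fell from 191 to 76.3 CPM, the calponin Cnn2 from 372 to 136 CPM, the non-muscle myosin heavy chain Myh9 from 81.8 to 30.5 CPM and vinculin (Vcl), which links actin to adhesions, from 85.5 to 38.8 CPM. The list was not uniform. Caldesmon (Cald1) stood at 824 and 844 CPM, the intermediate filament gene Des at 74.8 and 119 CPM and Vim at 1937 and 1855 CPM, none past the fold.

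Many contractile genes carry the CArG box, the element bound by serum response factor, of the form CC, 6 bases of A or T, and GG. RefSeq promoter windows (build GRCm38.p6) were available for 24 of the 27 listed genes and not for Tagln, Actg2 or Actb, for which only levels are given. In the 250 bases upstream of the start site a CArG box was found for 5 of the 24 genes, 20.8%, beside 1.62% of 27025 genes, and the form reads the same on both strands. Windows of 30 bases around the boxes are shown for 3 genes that fell, 5′ to 3′ on the strand of the gene with the box in capitals. Acta2 had no exact box, and its pair of boxes shown each differ from the form by 1 G or C inside, a looser form that includes the exact one and was found for 6 of the 24 genes and for 9.78% of all genes. Actg1, which did not reach the fold, also holds an exact box, 90 bases upstream. A match describes the letters only.

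Acta2, first base 84 upstream, chr19:34255438-34255467, minus strand: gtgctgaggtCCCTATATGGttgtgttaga
Acta2, first base 34 upstream, chr19:34255388-34255417, minus strand: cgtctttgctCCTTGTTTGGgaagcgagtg
Myl9, first base 161 upstream, chr2:156775293-156775322, plus strand: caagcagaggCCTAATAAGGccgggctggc
Cnn2, first base 56 upstream, chr10:79988534-79988563, plus strand: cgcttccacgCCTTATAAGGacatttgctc

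Both Acta2 windows lie inside the span that GENCODE gives the gene on this build, since its annotated start is further upstream than that of RefSeq.

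Genes that respond to serum response factor or to the YAP coactivator moved less as a list. Of 17 used genes 4 were called lower and none higher, around a median of -0.11. Those 4 were Amotl2 and Axl, both known YAP targets, at 71.7 and 33.7 CPM and at 133 and 66.1 CPM, Crim1 at 30.6 and 14.3 CPM and the phosphatase gene Dusp1 at 151 and 72.0 CPM. Immediate early gene Fos stood at 195 and 193 CPM and Egr1 at 164 and 90.1 CPM, neither past the fold.

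**Figure D3:**
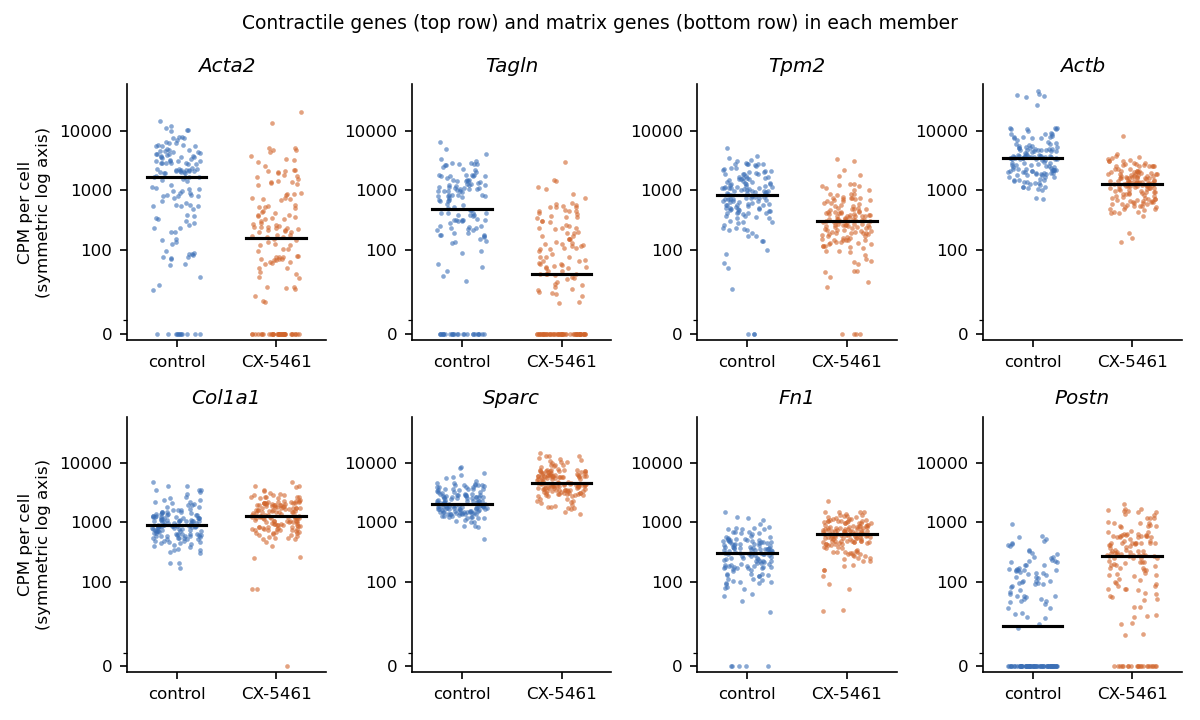
Each point is a member, 140 of the control library and 146 of the CX-5461 library, with its level in CPM on a symmetric log axis and the median as a black bar. The medians of Acta2, Tagln, Tpm2 and Actb are lower in CX-5461 members and those of Col1a1, Sparc, Fn1 and Postn higher, with overlapping cells for each gene.

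Matrix genes stood on the other side of the median of all genes. The 3 collagens of the rule are given as a description only, because they chose the members. Col1a1 (chr11:94936224-94953042, plus strand, GRCm38) and Col1a2 (chr6:4504814-4541544, plus strand), the chains of type I collagen, stood at 1036 and 1442 CPM and at 961 and 1313 CPM. Col3a1 (chr1:45311538-45349706, plus strand), the chain of type III collagen, stood at 282 CPM in control members and 887 CPM in CX-5461 members. Their log2 ratios were 0.48, 0.45 and 1.65 in members and 0.73, 0.71 and 1.92 over all cells with the mesenchymal score. Of the 13 used collagen genes outside the rule, 3 were called higher and none lower, around a median of 0.77. These were Col18a1 of basement membranes, with a log2 ratio of 1.47 and 83.4 CPM in CX-5461 members, Col5a3 from 38.9 to 83.1 CPM and Col16a1 from 10.1 to 22.7 CPM. Col5a1 and Col5a2, which nucleate type I fibrils, stood at 140 and 238 CPM and at 164 and 298 CPM. The type VI chain Col6a3 stood at 75.1 and 71.5 CPM and Col12a1 at 111 and 107 CPM.

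Matrix glycoproteins and proteoglycans had a median log2 ratio of 0.89, with 11 of 28 used genes called higher and 1 lower, beside 7.78% and 4.42% of all genes. In the other cells the median was -0.00. Without the cells of that reference that reached the mesenchymal score it was 1.81 over 15 genes, on sums of 317 and 441 CPM. The list summed to 5224 and 9664 CPM in members. Whether members and other cells differed in this was not tested. Sparc, a collagen-binding glycoprotein, ranged from 535 to 8717 CPM per control member around a median of 2044 CPM, and from 1389 to 14882 CPM per CX-5461 member around a median of 4535 CPM. The 75th percentile of control members, 2958 CPM, lay below the 25th percentile of CX-5461 members, 3498 CPM. Sparc was 2.24 times higher in sum (2.18 to 2.3), and its log2 ratio of 1.16 in members compared with 1.21 over the cells with the mesenchymal score, a score that includes Sparc.

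Periostin (Postn), a matricellular protein of activated fibroblasts, was found in 50.7% of control members and 85.6% of CX-5461 members, and in 41.5% and 74.6% after thinning to 10000 UMIs, beside 0.993% and 0.637% of other cells. Its medians were 30.1 and 278 CPM per member, and its sum rose from 80.0 to 381 CPM, a log2 ratio of 2.25. Mfap2, a microfibril component, rose from 27.3 to 118 CPM, decorin (Dcn), which coats collagen fibrils, from 90.4 to 295 CPM, versican (Vcan) from 66.8 to 149 CPM, and the laminin chain Lamb1 from 18.4 to 68.5 CPM. Fibronectin (Fn1) stood at 343 and 662 CPM, a log2 ratio of 0.95 that misses the fold, with 306 and 632 CPM in the median member.

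Thrombospondin 1 (Thbs1) was the exception among the glycoproteins. It had a median of 223 CPM per control member and 42.0 CPM per CX-5461 member and fell from 587 to 113 CPM in sum, 5.20 times lower (4.68 to 5.80), while its relative Thbs2 rose from 51.8 to 117 CPM. Tenascin C (Tnc) stood at 96.2 and 85.2 CPM and Nid1 at 75.1 and 59.1 CPM.

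Enzymes that process collagen followed in part. Of 17 used genes 5 were called higher and none lower, around a median of 0.52. The lysyl hydroxylase genes Plod1 and Plod2 rose from 14.4 to 48.0 CPM and from 32.5 to 70.7 CPM, the prolyl hydroxylase gene P4ha2 from 23 to 59.3 CPM, the procollagen protease gene Bmp1 from 78.7 to 167 CPM and its enhancer Pcolce from 115 to 263 CPM. The collagen chaperone Serpinh1 stood at 1203 and 1369 CPM and lysyl oxidase (Lox) at 325 and 409 CPM.

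Genes of matrix turnover had a median of 0.99, with 7 of 14 used genes called higher and 1 lower. The gelatinase gene Mmp2 rose from 46.9 to 147 CPM and was found in 25.4% of control members and 65.5% of CX-5461 members after thinning. The membrane protease gene Mmp14, which activates it, rose from 49.9 to 154 CPM, cathepsin K (Ctsk) from 24.5 to 69.9 CPM and the protease inhibitor gene Serpine2 from 145 to 386 CPM. With the mean of CPM over cells in place of summed UMIs the median of this list was 0.74. List medians were also taken over all cells with the mesenchymal score, which itself includes Sparc and Fn1. They were 0.76 for collagens outside the rule, 0.96 for glycoproteins, 0.59 for collagen processing and 1.08 for matrix turnover. The other kept cells below the score also had positive medians. These were 1.55 over 5 collagens outside the rule, 0.49 over 16 genes of collagen processing and 0.82 over 9 genes of matrix turnover. The median over all genes used there was 0.28.

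The members also differed in secreted signals. Of 29 used genes 8 were called higher and 1 lower around a median of 0.36. Insulin-like growth factor 2 (Igf2), a fetal growth factor, had a UMI in 62.1% of control members and 91.8% of CX-5461 members and rose from 94.1 to 418 CPM, with medians of 50.6 and 313 CPM per member. H19 (chr7:142575529-142578143, minus strand), an imprinted RNA whose gene lies beside Igf2 (chr7:142650766-142666816, minus strand), rose from 695 to 1947 CPM, with medians of 197 and 1411 CPM per member. The authors' count of reads shared with other genes was 53 and 46 for Igf2 over all barcodes and 0 for H19. Midkine (Mdk) rose from 132 to 333 CPM, the Wnt modulator Sfrp2 from 12.6 to 50.2 CPM and the TAM receptor ligand Gas6 from 35.2 to 115 CPM. Wnt5a was the gene called lower, from 33.4 to 14 CPM. The cytokine Lif, which feeders can supply to mES cells, had 22 and 51 UMIs and was below the minimum for a ratio.

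Imprinted genes, expressed from 1 parental copy, were compared as a list. Of 14 used imprinted genes 4 were called higher and none lower, namely Igf2, H19, Igf2r, the receptor that clears Igf2 protein, from 26.3 to 96.3 CPM, and Sgce from 8.27 to 20.2 CPM. Meg3 stood at 1136 and 1371 CPM, Dlk1 at 58.8 and 70.9 CPM and Peg3 at 34.9 and 31.6 CPM.

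Antigen presentation and interferon-type genes had a median log2 ratio of 0.76, with 9 of 24 used genes called higher and none lower. In the other cells 2 of 22 were called higher and 9 lower, around a median of -0.21. Without the 76 and 20 cells of that reference that reached the mesenchymal score, its median turned to 0.40 over 20 genes, with sums of 2148 and 2672 CPM. Beta-2 microglobulin (B2m), the light chain of MHC class I, ranged from 102 to 4927 CPM per control member around a median of 941 CPM, and from 579 to 13062 CPM per CX-5461 member around a median of 2680 CPM. Its sum rose from 1080 to 3205 CPM, 2.97 times higher (2.86 to 3.08), with overlapping cells. The heavy chain genes H2-K1 and H2-D1 rose from 123 to 322 CPM and from 172 to 457 CPM. Ly6a, an interferon-inducible surface protein, rose from 498 to 1019 CPM, and the restriction factors Ifitm1 and Ifitm2 from 24.2 to 131 CPM and from 471 to 1053 CPM.

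Interferon-induced genes did not move as a block. Rsad2, which encodes the antiviral enzyme viperin, had a UMI in 18 control members and 45 CX-5461 members, and in 5.38% and 17.6% after thinning, beside 0.882% and 0.725% of other cells. It rose from 7.35 to 52.1 CPM, with 104 of 193 CX-5461 UMIs in 5 members. Ifit1 stood at 115 and 199 CPM, Ifit3 at 120 and 149 CPM, Isg15 at 839 and 699 CPM and Irf7 at 125 and 111 CPM, none past the fold.

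The core of the interferon-stimulated response element, searched on both strands as GAAA, any 2 bases and GAAA, was found within 250 bases upstream of 9 of the 25 genes of this list with a RefSeq window, 36%, beside 3.46% of all 27025 genes. It was found for 4 of 29 genes of the chemokine list. The upstream windows of B2m, Rsad2 and of the chemokine gene Cxcl10, 3 genes that rose and hold the core, are given 5′ to 3′ on the strand of the gene, with the core in capitals. The core of Rsad2 lies on the opposite strand. Isg15, Ifit1 and Ifit3, which were not called, also hold it.

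B2m, core 139 bases upstream, chr2:122147437-122147686, plus strand: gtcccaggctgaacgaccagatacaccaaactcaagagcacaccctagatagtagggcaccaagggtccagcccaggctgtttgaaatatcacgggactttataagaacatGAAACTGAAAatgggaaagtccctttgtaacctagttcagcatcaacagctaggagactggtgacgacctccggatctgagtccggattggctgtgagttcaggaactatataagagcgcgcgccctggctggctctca
Rsad2, core 120 bases upstream, chr12:26456453-26456702, minus strand: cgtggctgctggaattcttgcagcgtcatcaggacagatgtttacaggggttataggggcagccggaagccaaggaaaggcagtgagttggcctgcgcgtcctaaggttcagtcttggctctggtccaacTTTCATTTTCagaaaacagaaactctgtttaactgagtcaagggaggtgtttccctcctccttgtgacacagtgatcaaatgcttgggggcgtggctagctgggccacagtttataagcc
Cxcl10, core 213 bases upstream, chr5:92348890-92349139, minus strand: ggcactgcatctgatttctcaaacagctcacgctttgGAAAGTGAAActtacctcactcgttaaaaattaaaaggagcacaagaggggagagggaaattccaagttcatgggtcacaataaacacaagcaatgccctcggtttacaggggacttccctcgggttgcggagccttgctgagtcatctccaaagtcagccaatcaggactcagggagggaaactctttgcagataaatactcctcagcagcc

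Chemokines and inflammatory genes had a median log2 ratio of 0.78, with 11 of 26 used genes called higher and 1 lower. Ccl2, which attracts monocytes, ranged from 0 to 3790 CPM per control member around a median of 496 CPM, and from 0 to 8503 CPM per CX-5461 member around a median of 1542 CPM. It rose from 682 to 1861 CPM, 2.73 times higher (2.60 to 2.86), and was found in 76.9% and 94.4% of members after thinning. Its neighbour Ccl7 on chromosome 11 stood at 551 and 931 CPM. The neutrophil chemokine genes Cxcl1 and Cxcl5 rose from 93.4 to 234 CPM and from 54.5 to 156 CPM, Cxcl10, which attracts T cells, from 63.7 to 253 CPM, and the adhesion receptor gene Icam1 from 29.4 to 86.6 CPM.

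Several of these genes rested on few cells. Ccl8 was found in 15 control members and 79 CX-5461 members, and 1 control member held 127 of 218 UMIs while 1 CX-5461 member held 317 of 1604. Its sum rose from 66.8 to 433 CPM, a log2 ratio of 2.70 that became 3.64 without the top cell of each library. Ccl20 rose from 19.9 to 209 CPM, with 194 of 776 CX-5461 UMIs in 1 member and a log2 ratio of 3.39, or 3.23 without the top cells. Ccl12 rose from 3.98 to 92.3 CPM on 13 and 342 UMIs, found in 6 and 21 members. The acute phase gene Saa3 stood at 584 and 1018 CPM, with 572 of 1905 control UMIs in 1 member, and its log2 ratio of 0.80 passed the fold at 1.12 without the top cells. It was found in 20 control members and 87 CX-5461 members. The 5 control members with the most Saa3 held 75.7% of its UMIs there, and none of these members had an Xist UMI. Ccl5 stood at 44.1 and 46.4 CPM, with 126 of 172 CX-5461 UMIs in 1 member, and its log2 ratio of 0.07 became -0.91 without the top cells. Lcn2 had 52 of 60 control UMIs and 95 of 150 CX-5461 UMIs in single members.

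Il1rl1, the receptor of interleukin 33, was the gene of this list called lower. It had a UMI in 73 control members and 42 CX-5461 members, and in 48.5% and 13.4% after thinning. It fell from 222 to 23.7 CPM, 9.34 times lower (7.48 to 11.8). The metallothionein genes Mt1 and Mt2 stood at 1740 and 1526 CPM and at 1124 and 936 CPM in members, while in the other cells they stood at 1204 and 462 CPM and at 1417 and 370 CPM.

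**Figure D4:**
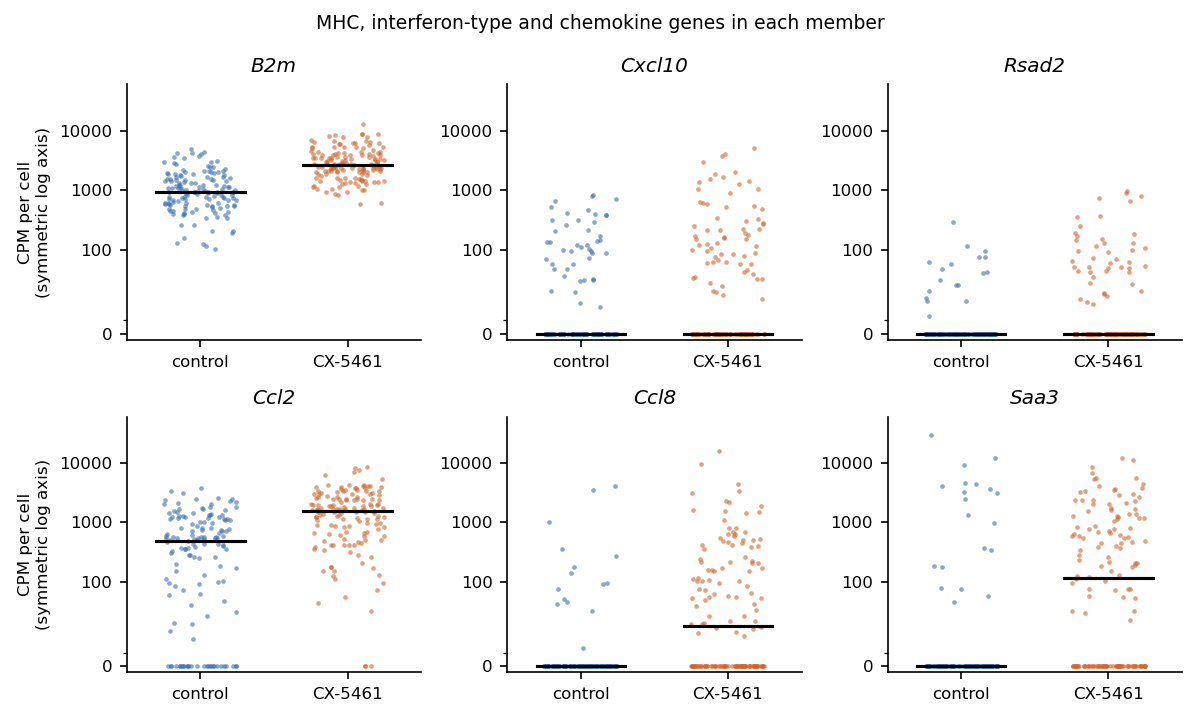
Each point is a member with its level in CPM on a symmetric log axis, for the control library (140 cells) and the CX-5461 library (146 cells), and black bars are medians. B2m and Ccl2 shift over most cells, whereas Cxcl10, Rsad2, Ccl8 and Saa3 are at 0 in many members of both libraries and reach high levels in some.

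Targets of p53, the stress-activated transcription factor, are given for members and other cells side by side. Of 30 used targets 7 were called higher and none lower in members, around a median of 0.50, beside 7.78% higher among all genes. With the TMM factor that median was 0.33, and Cdkn1a, Fas, Perp, Plk2 and Bbc3 no longer reached the fold. In the other cells 24 were called higher, around a median of 1.82, where 12.5% of all genes were called higher. Without the cells that reached the mesenchymal score the latter median was 1.97. The difference between the cell groups was not tested. The members held more target RNA in control, with the 40 listed genes at 4022 and 6809 CPM, beside 1496 and 3996 CPM in other cells. Cdkn1a, the p21 cell cycle inhibitor, was found in every member. It ranged from 183 to 3928 CPM per control member around a median of 1128 CPM, and from 432 to 6800 CPM per CX-5461 member around a median of 2389 CPM. Its sum rose from 1235 to 2488 CPM, 2.01 times higher (1.94 to 2.09), and its log2 ratio was 0.93 over the cells with the mesenchymal score. In the other cells it stood at 168 and 530 CPM, below the members of either library.

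Mdm2, the p53 feedback inhibitor, stood at 199 and 206 CPM in members, with medians of 180 and 171 CPM per cell, beside 37.6 and 131 CPM in the other cells. Trp53inp1 stood at 69.9 and 52.6 CPM in members and 26.4 and 74.8 CPM in other cells. The targets called higher in members besides Cdkn1a were the carbonyl reductase gene Dcxr, from 193 to 514 CPM, the death receptor gene Fas from 39.5 to 87.4 CPM, Perp from 61.9 to 127 CPM, the kinase gene Plk2 from 26.0 to 54.5 CPM, Psrc1 from 29.1 to 70.4 CPM and the BH3 gene Bbc3 from 9.19 to 18.9 CPM. Ccng1 stood at 343 and 481 CPM in members and at 89.2 and 322 CPM in other cells.

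**Figure D5:**
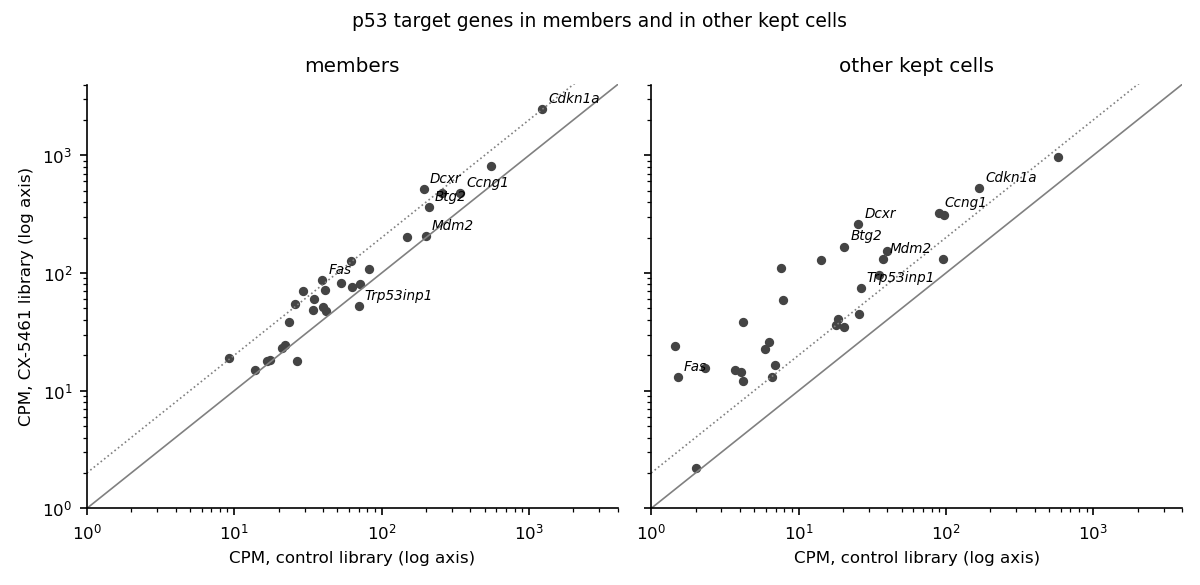
The 30 used p53 targets are placed by their CPM in the control library and the CX-5461 library, on log axes, for members (left) and other kept cells (right), with the line of equality and a dotted line at 2-fold. In members 7 of 30 genes reach 2-fold and Mdm2 lies on the line of equality, while 24 of 30 reach it in other cells from lower control levels.

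Among genes of arrest and senescence, 5 of 16 used genes were called higher and 1 lower, around a median of 0.24. Besides Cdkn1a these were the cyclin-dependent kinase inhibitor genes Cdkn2a, from 33.4 to 86.3 CPM, and Cdkn2b, from 66.5 to 155 CPM, the stress gene Gadd45a from 18.4 to 37.8 CPM and the lysosomal galactosidase gene Glb1 from 14.4 to 31.6 CPM. Of 10 used S-phase genes 2 were called lower and none higher, around a median of -0.30, on sums of 401 and 272 CPM.

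Genes of ribosome production are the machinery around the enzyme that CX-5461 inhibits. Of 72 used genes of RNA polymerase I and ribosome biogenesis 5 were called lower and none higher in members, around a median of -0.19, beside 4.42% lower among all genes. The lowest was the helicase gene Ddx18, from 100 to 36.1 CPM, which stood at 285 and 95.8 CPM in the other cells. The nucleolar helicase gene Ddx21 fell from 65.9 to 30.8 CPM and the snoRNP gene Nop56 from 70.5 to 33.2 CPM. Members held less of this list than the mES cells, 5361 and 4811 CPM beside 14829 and 13102 CPM. Ribosomal protein genes took 288106 and 237491 CPM, with 15 of 77 called lower and none higher around a median of -0.19, and the other cells had 17 of 77 lower around -0.30. Rps28 and Rps29 fell from 4847 to 1011 CPM and from 3797 to 809 CPM in members and from 4403 to 1173 CPM and from 4408 to 1103 CPM in the other cells. Of 27 used genes of the ER and integrated stress response 4 were called lower and 1 higher, the stress factor gene Ddit3 from 95.9 to 210 CPM.

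Among the 10 genes with the highest ratios, some rose in both cell groups. Ndufa4l2, a mitochondrial complex I-related gene, had 5 UMIs in control members and 237 in CX-5461 members, a ratio of 41.7 with a wide interval (17.6 to 129.7), and went from 0.303 to 12.5 CPM in other cells. The secreted peroxidase gene Gpx3 rose from 88.2 to 513 CPM in members and from 9.52 to 379 CPM in other cells, and Ppp1r14a, an inhibitor of myosin phosphatase, from 14.7 to 95.5 CPM and from 4.87 to 57.8 CPM. Others stood apart from the mES cells. Serpina3g rose from 8.58 to 64.2 CPM in members and stood at 0.563 and 0.415 CPM in the others. Of the 10 genes with the lowest ratios, Insig1, a brake on sterol synthesis, fell from 115 to 18.3 CPM in members and from 73.2 to 18.9 CPM in other cells.

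S100a6 and S100a4, calcium-binding proteins abundant in fibroblasts, were the 2 mesenchymal identity genes of 25 called lower, and the TGF-beta co-receptor gene Eng, from 14.1 to 28.9 CPM, was the 1 called higher. S100a6 had medians of 7359 CPM per control member and 2492 CPM per CX-5461 member and fell from 8487 to 2852 CPM in sum. S100a4 fell from 559 to 201 CPM. Galectin 1 (Lgals1) stood at 9084 and 7555 CPM, Cd44 at 484 and 333 CPM and Thy1 at 171 and 159 CPM. The median of the list was -0.27, and among all genes 4.42% were called lower and 7.78% higher.

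The members also varied among themselves. Over the members of a library, Acta2 was most like Tagln (Spearman's rho 0.84 over 140 control cells and 0.73 over 146 CX-5461 cells), Tpm2 (0.80 and 0.70) and Myl9 (0.73 and 0.67). Col1a1 was most like Col1a2 (0.53 and 0.62), a description only, since both belong to the sum that chose the members. In control members Sparc (0.38) and Col6a2 (0.36) came next, and in CX-5461 members Col5a1 (0.43) and Col3a1 (0.43). Ccl2 was most like Ccl7 in both libraries (0.70 and 0.70). The share of contractile RNA against the collagen share gave -0.00 and -0.20 over the 216 and 166 cells with the mesenchymal score, which were not chosen on collagen. Over members, the share of matrix glycoproteins against the collagen share, which chose them, gave 0.53 and 0.43. The share of interferon-type genes against that of chemokines gave 0.43 and 0.33 over members. These values describe cells that share a library, and every share is of the same total, which itself was correlated with the ribosomal protein share at 0.52 and 0.36.

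List shares per cell give the spread. Contractile genes took from 0.426% to 8.17% of UMIs in control members around a median of 1.65%, and from 0.367% to 5.24% in CX-5461 members around 0.889%. Matrix glycoproteins took from 0.230% to 1.55% around 0.511%, and from 0.403% to 2.61% around 0.945%. The 75th percentile of control members for matrix glycoproteins was 0.651%, and the 25th percentile of CX-5461 members was 0.736%.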

How the data were processed

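Single-cell libraries of untreated and CX-5461-treated mES cells were made with 10x Genomics 3′ chemistry. The authors deposited UMI counts per gene and barcode, 1 table per condition, made with a published droplet pipeline and not normalized. The submitters' processing notes name Seurat 2.3.4 and the mm10 build. Of 54146 gene identifiers, 54079 matched GENCODE annotation of GRCm38 once version numbers were removed. The authors' deposited count of ambiguous reads per gene was used only as a check.

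Members and lists were chosen with earlier results of these data known. UMIs were summed over members and expressed as CPM. Ratios have exact conditional binomial intervals and shares Clopper-Pearson intervals. Each condition is 1 library, so no p-value was computed. No doublet caller was run. Members carrying mES transcripts were counted instead, which does not give a doublet rate. For shares of cells with a UMI, members were thinned at random to 10000 UMIs. Genes were named from the lists, from the 10 highest and 10 lowest ratios and the 10 highest levels over other cells per library, all ranked by the interval bound nearest 1, and from the 10 highest correlations with Col1a1. Correlations of Acta2 and Ccl2 were chosen after the data were seen. Ratios and intervals were tested on simulated data with known fold changes. The simulated sums held counting error only, so the spread between cells was not covered. Python 3.11.15, NumPy 2.4.6, SciPy 1.17.1 and pandas 2.3.3 were used. Alternatives were the TMM factor, means over cells, other rules for cells and members, subtraction of mES RNA, and other minima and folds. Values of some single genes are not reported here.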

Additional observations from a re-analysis of the deposited data

Results flagged for a closer look

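For 17 genes the members and the other kept cells passed 2-fold in opposite directions between the libraries, 14 of the 426 genes called higher in members and 3 of the 242 called lower. The difference was not tested for any of them, since each condition is 1 library. The other cells include the 76 control and 20 CX-5461 cells that reached the mesenchymal score without meeting the collagen rule, so values without these cells, chosen after the data were seen, are given as well.

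For 3 genes the value in other cells changed sign without those cells. H19 had a log2 ratio of 1.49 in members and -1.17 in other cells, which became 0.92. Decorin (Dcn) had 1.71 in members and -1.39 in other cells, which became 1.25 on 7 and 24 UMIs. Col3a1, a gene of the rule, had 1.65 and -1.19, which became 0.82. Ccl2 had 1.45 and -1.30, which became -0.00, a value with no direction.

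For Mgst1 (1.36 in members and -1.53 in others), Tmem176a (1.52 and -1.45), Gng11 (1.28 and -1.49) and Gm20634 (1.18 and -1.21) the others no longer reached 2-fold without those cells, at -0.43, -0.41, -0.58 and -0.60. Cxcl5 had 1.52 and -2.72, which became -1.07 on 32 and 22 UMIs.

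For 8 further genes the other cells stayed past 2-fold without those cells. Rsad2 had 2.82 in members and -1.56 in others (-1.53 without those cells). Rgcc, a regulator of the cell cycle, had 1.47 and -2.48 (-2.49). The interferon-inducible gene Ifi205 had 1.06 and -2.58 (-1.94), on 98 and 23 UMIs in other cells. The histone genes Hist1h4a and Hist1h4h had 1.02 and -1.77 (-1.78) and 1.25 and -1.60 (-1.55). Keratin 19 (Krt19) had -1.33 in members and 2.31 in others, which became 4.49 on 16 and 517 UMIs. Dusp1 had -1.07 and 1.25 (1.5) and the apoptosis gene Bok -1.95 and 1.03 (1.18).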

How the results depend on the processing

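No paired analysis was possible because the tables pool the barcodes of the 4 labelled samples of a condition. The stricter collagen rule (0.3% and 10 UMIs) left 34 control and 89 CX-5461 members, 0.903% and 1.89% of kept cells, with 265 genes higher and 147 lower of the 3051 that then had 100 UMIs, in place of 5479. It put the medians of other collagens, matrix glycoproteins and chemokines at 0.38, 0.50 and 0.31, and that of ribosome biogenesis at 0.10 in place of -0.19. The deeper cell filter put control members at 5.03% and CX-5461 members at 3.47% of kept cells. The mesenchymal score, chosen after the data were seen, put them at 5.73% and 3.53%. With the TMM factor 279 genes were higher, and the medians of chemokines and ribosomal proteins were 0.61 and -0.35. A minimum of 30 UMIs gave 941 higher and 516 lower genes and a contractile median of -1.02, a minimum of 1 UMI gave 4668 and 3457 genes, and 1.5-fold gave 1197 and 582, each by its own construction. The mean over cells gave a matrix remodelling median of 0.74. The cause of the other shifts was not tested. Of 421 values for 47 named genes, none changed sign past the fold, 11 no longer passed 2-fold, 4 newly passed it and 25 moved further than counting error. With 1 library per condition, variation between cultures is not measured, and counting intervals are narrower than that variation can be.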

Other observations

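Mitochondrially encoded transcripts stood at 19742 CPM in control members and 31936 CPM in CX-5461 members, with 5 of 12 used genes past 2-fold higher and none lower around a median log2 ratio of 0.90. In the other cells the list stood at 26087 and 45676 CPM. Hox genes, which mark position along the body axis, summed to 161 and 156 CPM in members.

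Of the 71 control and 225 CX-5461 barcodes left out by the cell filter, 3 in each library met the collagen rule, which is 4.23% (0.880 to 11.9) and 1.33% (0.276 to 3.85) of them.

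Transcripts typical of 2-cell embryos summed to 6.43 CPM in control members and 14 CPM in CX-5461 members over 33 listed genes, beside 35.9 and 165 CPM in the other cells. None of these genes had enough UMIs in members for a ratio.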
